A study of Mus musculus with 12 samples.

Results

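The genes of 10 plasma proteins that the liver secretes in the acute phase response were followed in mouse liver across an iron-loaded diet and a pair of library preparation kits. The genes are Saa1, Saa2, Saa3, Orm1, Orm2, Lcn2, Hp, Hpx, Apcs and Itih4. They were found by matching the Ensembl identifiers of the count table to these symbols, and 10 of 10 were among the 27022 genes listed. The livers came from 6 female SJL/J mice, an inbred strain, aged 11 weeks. Of these, 3 stayed on the AIN-93G control diet, which contains 50 ppm iron, and the other 3 had received AIN-93G with 2% carbonyl iron since 6 weeks of age. All mice were fasted on the day of collection and their tissues were flushed with cold saline through the heart. Each diet was given to 1 cage, so the diet and the cage cannot be told apart in any comparison of the diets. The RNA of each liver was made into 1 Trad-KAPA library, which samples the whole transcript, and 1 3'-LEXO library, which samples the 3' end of the transcript, for a total of 12 libraries.

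The acute phase response is the change in the proteins secreted by hepatocytes during infection or tissue injury. Interleukin-6 and interleukin-1 from activated macrophages reach receptors on the hepatocyte and act through the transcription factors STAT3, NF-kB and C/EBP to raise the transcription of positive acute phase genes, while the transcripts of negative acute phase proteins such as albumin decrease. Several of the proteins handle iron or heme. Haptoglobin (Hp) binds free hemoglobin, hemopexin (Hpx) binds free heme, and lipocalin 2 (Lcn2) binds the siderophores with which bacteria take up iron. Serum amyloid A (Saa1, Saa2, Saa3) is an apolipoprotein of high density lipoprotein, serum amyloid P (Apcs) is a pentraxin, the orosomucoids (Orm1, Orm2) are carrier proteins of the lipocalin family, and Itih4 encodes a heavy chain of the inter-alpha-trypsin inhibitor family.

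The serum amyloid A genes are shown first by their sequence, in which Saa1 and Saa2 are near-identical and Saa3 differs. Whether the promoter sequence bears on the diet effect was not tested. The diet effect of Saa3 was not compared with that of Saa1 or Saa2 by a test. Saa1, Saa2 and Saa3 lie near one another on chromosome 7 of GRCm38. On the minus strand are Saa3 (ENSMUSG00000040026) from 46711998 to 46715700 and Saa1 (ENSMUSG00000074115) from 46740497 to 46742980. On the plus strand is Saa2 (ENSMUSG00000057465) from 46751790 to 46754313. Each window below comes from RefSeq (GRCm38.p6), runs 5′ to 3′ on the strand of the gene, and spans 250 bases before to 50 bases after the annotated start of the transcript. Capitals mark matches to the C/EBP motif TTGCNNAA on either strand. The windows are chr7:46742931-46743230 for Saa1, chr7:46751583-46751882 for Saa2 and chr7:46715627-46715926 for Saa3.
Saa1: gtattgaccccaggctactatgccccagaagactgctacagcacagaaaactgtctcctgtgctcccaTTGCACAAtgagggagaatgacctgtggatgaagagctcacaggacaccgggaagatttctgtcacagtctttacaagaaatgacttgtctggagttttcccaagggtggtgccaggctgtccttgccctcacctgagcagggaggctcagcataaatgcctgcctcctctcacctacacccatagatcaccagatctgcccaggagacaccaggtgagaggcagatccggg
Saa2: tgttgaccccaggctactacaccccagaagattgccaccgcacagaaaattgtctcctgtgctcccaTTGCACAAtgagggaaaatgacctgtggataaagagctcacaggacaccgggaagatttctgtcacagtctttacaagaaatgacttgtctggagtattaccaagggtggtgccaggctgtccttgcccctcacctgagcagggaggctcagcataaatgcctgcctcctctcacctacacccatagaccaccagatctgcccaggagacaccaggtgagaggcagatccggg
Saa3: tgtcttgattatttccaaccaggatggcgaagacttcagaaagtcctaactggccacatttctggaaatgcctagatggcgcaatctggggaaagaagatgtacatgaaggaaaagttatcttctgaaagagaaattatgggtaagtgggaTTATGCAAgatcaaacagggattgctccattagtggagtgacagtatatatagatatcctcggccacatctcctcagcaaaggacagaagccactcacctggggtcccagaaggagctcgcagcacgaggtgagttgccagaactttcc

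The Saa1 and Saa2 windows were 95.3% identical over 301 aligned positions, including the C/EBP match, which begins at base -182 from the start site in Saa1 and at base -183 in Saa2. The Saa3 window was 50.1% identical to that of Saa1 and held its single C/EBP match at bases -99 to -92, on the opposite strand. A match to TTGCNNAA was found in 6 of the 8 promoters given for these genes (Saa1, Saa2, Saa3, Orm2, Lcn2 and Hpx) and in 10.8% of all 27025 promoters of this length. The STAT motif TTCNNNGAA was found in those of Apcs and Itih4, and in 8.47% of all promoters. The NF-kB motif, in its usual degenerate form of 10 letters, was found in 0 of the 8 and in 8.18% of all promoters, and the 4 motifs searched also included TATAAA on the gene strand, which was found in Orm2 and in 8.88% of all promoters. STAT and NF-kB motifs were searched on both strands, and motifs did not overlap in these windows. A match is a run of letters and not a site shown to bind a factor. The promoters of Orm1 and Hp are not shown.

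The Trad-KAPA libraries held 13834682 to 16553616 counts and the 3'-LEXO libraries 10724672 to 14104236. Albumin (Alb), the defining hepatocyte transcript, reached 93071 to 134719 CPM (counts scaled to a library total of 1e6) in Trad-KAPA. Libraries of 1 group always differed by more than counting noise, as the chi-square divided by its degrees of freedom lay between 5.97 and 59.8, and the libraries of iron-loaded mice 2 and 3 differed least. In liver pieces, more cells of a type and more RNA per cell cannot be told apart.

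Saa1 and Saa2 were the 2 of the 10 genes that fell on the iron-loaded diet. In Trad-KAPA, Saa1 was at 1284, 653 and 286 CPM in control mice 1, 2 and 3 and at 23.2, 91.0 and 90.1 CPM in iron-loaded mice 1, 2 and 3. In 3'-LEXO it was at 8942, 3454 and 2449 CPM in the control mice and at 197, 797 and 815 CPM in the iron-loaded mice. The lowest control mouse was above the highest iron-loaded mouse in both kits. The log2 fold change of iron-loaded over control was -3.48 ± 0.65 (SE, n = 3 mice per diet, edgeR quasi-likelihood test, adjusted p = 0.0123) in Trad-KAPA, which is 11.1-fold lower. In 3'-LEXO it was -3.07 ± 0.61 (adjusted p = 0.0208), which is 8.40-fold lower.

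Saa2 had the same order of mice as Saa1 in Trad-KAPA. In Trad-KAPA it was at 666, 332 and 134 CPM in control mice 1, 2 and 3 and at 13.4, 42.9 and 39.8 CPM in iron-loaded mice 1, 2 and 3. In 3'-LEXO it was at 1321, 799 and 318 CPM in the control mice and at 32.4, 138 and 97.4 CPM in the iron-loaded mice. Again the diets did not overlap in either kit, and iron-loaded mouse 1 was the lowest of the 6 mice. The log2 fold change was -3.59 ± 0.62 (adjusted p = 0.00988) in Trad-KAPA and -3.22 ± 0.58 (adjusted p = 0.0155) in 3'-LEXO. Both genes passed the test in Trad-KAPA under 12 of 12 alternatives. In 3'-LEXO both calls were lost without control mouse 1 (log2 fold change -2.33, adjusted p = 0.0619, and -2.68, adjusted p = 0.0509) and without control mouse 2 (-3.29, adjusted p = 0.0545, and -3.25, adjusted p = 0.0564).

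Saa3, which in mice is also made by macrophages and adipocytes, was low and did not pass the test. In Trad-KAPA it was at 15.9, 8.17 and 1.88 CPM in the control mice and 11.7, 4.71 and 5.61 CPM in the iron-loaded mice. In 3'-LEXO it was at 118, 48.2 and 10.3 CPM and at 53.4, 31.6 and 32.4 CPM. The control mice alone spanned the range of all iron-loaded mice in both kits. The log2 fold change was -0.31 ± 0.60 (adjusted p = 0.742) in Trad-KAPA and -0.63 ± 0.61 (adjusted p = 0.554) in 3'-LEXO, and it was positive without control mouse 1, at 0.45 in Trad-KAPA and at 0.38 in the 3' kit. With no filter on low counts, Saa3 passed in 3'-LEXO (adjusted p = 0.00566, against 0.554 with the filter and up to 0.873 under the alternatives).

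The spread between mice was the common feature of the 3 genes. The SD of log2 CPM between mice of a diet, pooled over the diets, was 1.11 for Saa1, 1.05 for Saa2 and 1.19 for Saa3 in Trad-KAPA, where the median of all genes tested was 0.212. In 3'-LEXO it was 1.08, 1.07 and 1.29, beside a median of 0.260. The order of the mice within a diet was nevertheless the same in both kits for 6 of 6 pairs of mice in Saa2 and in Saa3 and for 5 of 6 pairs in Saa1. Control mouse 1 was the highest and control mouse 3 the lowest of the controls for all 3 genes in both kits, but iron-loaded mouse 1 was the lowest of its diet for Saa1 and Saa2 and the highest for Saa3.

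**Figure D1:**
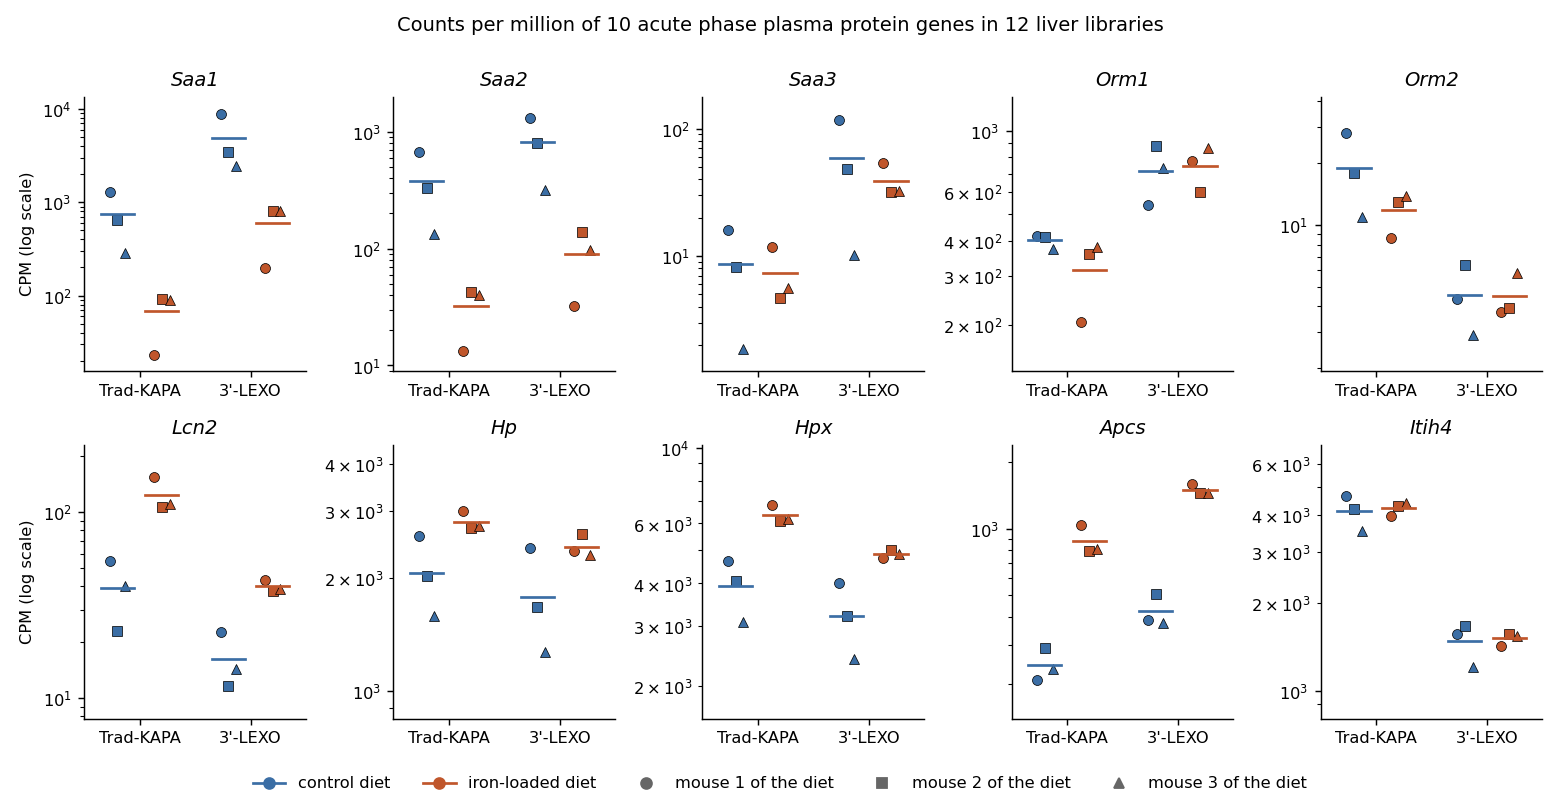
CPM on a log axis in each of the 12 libraries, with 1 panel a gene, blue for the control diet, orange for the iron-loaded diet, a marker shape for each mouse number within its diet and a bar at the mean of 3 mice. Saa1 and Saa2 are lower and Lcn2, Hpx and Apcs higher in all iron-loaded mice in both kits, and the diets overlap in the other genes except Hp in Trad-KAPA.

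Apcs (ENSMUSG00000026542, chromosome 1, 172893961 to 172895041) rose with the smallest error of the genes that changed. Serum amyloid P, its product, is a principal acute phase reactant of the mouse and a component of amyloid deposits. In Trad-KAPA the control mice were at 209, 290 and 232 CPM and the iron-loaded mice at 1042, 795 and 810 CPM. In 3'-LEXO they were at 387, 506 and 375 CPM and at 1591, 1447 and 1442 CPM. The lowest iron-loaded mouse was above the highest control mouse in both kits. The log2 fold change was 1.78 ± 0.16 (adjusted p = 0.00143) in Trad-KAPA and 1.77 ± 0.17 (adjusted p = 0.000835) in 3'-LEXO, which are 3.44-fold and 3.40-fold, and it passed under 12 of 12 alternatives in each kit. Saa1 and Saa2, which are induced together with it in the acute phase, fell in the same livers.

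Lcn2 (ENSMUSG00000026822, chromosome 2, 32384633 to 32388252) also rose. In Trad-KAPA it was at 54.5, 23.1 and 40.1 CPM in the control mice and at 154, 107 and 111 CPM in the iron-loaded mice. The 3'-LEXO libraries gave 22.9, 11.7 and 14.4 CPM and at 43.4, 38.0 and 38.8 CPM. All iron-loaded mice were above all control mice, and the order of the mice was the same in both kits for 6 of 6 pairs. The log2 fold change was 1.58 ± 0.28 (adjusted p = 0.0103) in Trad-KAPA and 1.24 ± 0.23 (adjusted p = 0.0169) in 3'-LEXO. Without control mouse 3 the call in 3'-LEXO was lost (log2 fold change 1.17, adjusted p = 0.0790).

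Neutrophils store lipocalin 2, so neutrophil markers are given beside this result. The 12 markers listed summed to 3.40 to 7.19 CPM in control and 10.8 to 17.0 CPM in iron-loaded Trad-KAPA libraries, and to 8.93 to 21.1 and 29.6 to 67.6 CPM in 3'-LEXO. Of the 12, only 3 were tested in Trad-KAPA, all called higher, and 4 in 3'-LEXO, of which 2 were called higher. Over all genes tested, 8.77% and 3.17% were called higher. Csf3r was called in Trad-KAPA (log2 fold change 1.08 ± 0.24, edgeR adjusted p = 0.0208) and was not tested in 3'-LEXO. S100a8 and S100a9, which encode the calprotectin subunits, passed the test in both kits, with log2 fold changes of 1.51 ± 0.39 and 2.48 ± 0.41 in Trad-KAPA. Those in 3'-LEXO were 1.75 ± 0.38 and 1.79 ± 0.32. In iron-loaded mouse 2 they gave 33.3 and 23.4 of the 67.6 CPM. Ly6g was at 0 in 5 of 6 libraries of each kit, Elane at 0 in 3 of 6 Trad-KAPA and 4 of 6 3'-LEXO libraries, and Mpo summed to 31 and 20 counts over the 6 libraries of each kit. Mean Mpo was lower on the iron-loaded diet, at 0.212 against 0.474 CPM in Trad-KAPA and 0.215 against 0.309 CPM in 3'-LEXO, while most other means were higher. The markers did not share an order of the iron-loaded mice in Trad-KAPA, where mouse 1 had the most Lcn2. Csf3r was at 5.36, 4.51 and 5.17 CPM in iron-loaded mice 1, 2 and 3. Ngp, tested in neither kit, was at 0.214, 1.71 and 1.15 CPM. The 9 Kupffer cell and macrophage markers summed to 406 to 652 CPM in control and 747 to 817 CPM in iron-loaded Trad-KAPA libraries, and to 958 to 1263 and 1305 to 1614 CPM in 3'-LEXO, with Marco and Lyz2 higher in both kits. Vsig4 was called higher in Trad-KAPA only, and the other 6 markers there and 7 in 3'-LEXO were not called. Of the 9, 3 were thus called higher in Trad-KAPA and 2 in 3'-LEXO, beside 8.77% and 3.17% of all genes tested. The mean of Marco alone rose from 19.4 to 144 CPM in 3'-LEXO. Clec4f was at 0.13 ± 0.15 and 0.11 ± 0.17 on the log2 scale, and Adgre1 at 0.08 ± 0.30 and -0.31 ± 0.23. The part of these cells in the Lcn2 values was not tested.

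Hpx (ENSMUSG00000030895, chromosome 7, 105591613 to 105600137) and Hp (ENSMUSG00000031722, chromosome 8, 109575128 to 109579172) encode the heme and hemoglobin scavengers. In Trad-KAPA, Hpx was at 4653, 4082 and 3082 CPM in the control mice and at 6813, 6088 and 6182 CPM in the iron-loaded mice. With 3'-LEXO the values were 4001, 3220 and 2408 CPM and at 4740, 5012 and 4878 CPM. The diets did not overlap in either kit. The log2 fold change was 0.63 ± 0.17 (adjusted p = 0.0359) in Trad-KAPA and 0.55 ± 0.21 (adjusted p = 0.141) in 3'-LEXO, where only DESeq2 of the 12 alternatives called it (adjusted p = 0.0490, range over the alternatives 0.0490 to 0.355). The Trad-KAPA call was lost without control mouse 2 (log2 fold change 0.64, adjusted p = 0.0911), without control mouse 3 (0.50, 0.0781), without iron-loaded mouse 2 (0.64, 0.0963), without iron-loaded mouse 3 (0.64, 0.0920) and with these last 2 mice summed to 1 sample (0.64, 0.0920).

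Hp was at 2574, 2023 and 1577 CPM in the control mice and at 3005, 2700 and 2746 CPM in the iron-loaded mice in Trad-KAPA. Its 3'-LEXO values were 2391, 1670 and 1266 CPM and at 2350, 2610 and 2292 CPM. Control mouse 1 lay within the range of the iron-loaded mice in 3'-LEXO and just under it in Trad-KAPA. Its log2 fold change was 0.39 ± 0.17 (adjusted p = 0.149) in Trad-KAPA and 0.39 ± 0.23 (adjusted p = 0.317) in 3'-LEXO, and the difference did not pass the test in either kit. For both genes the control mice spread more than the iron-loaded mice, with an SD of log2 CPM of 0.353 against 0.0831 for Hp and 0.304 against 0.0880 for Hpx in Trad-KAPA, and control mouse 3 was lowest in both kits.

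The orosomucoid genes lie on chromosome 4, Orm1 (ENSMUSG00000039196) from 63344560 to 63348163 and Orm2 (ENSMUSG00000061540) from 63362449 to 63365878, and neither passed the test. In Trad-KAPA, Orm1 was at 418, 414 and 376 CPM in the control mice and at 205, 360 and 382 CPM in the iron-loaded mice. The 3' kit gave 538, 879 and 732 CPM and at 776, 601 and 864 CPM. Iron-loaded mouse 1 was the lowest of the 6 mice in Trad-KAPA and near the middle of them in 3'-LEXO. Iron-loaded over control, the log2 fold change was -0.41 ± 0.23 (adjusted p = 0.248) in Trad-KAPA and 0.00 ± 0.22 (adjusted p = 0.995) in 3'-LEXO.

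Orm2 was at 27.9, 18.0 and 10.9 CPM in the control mice and at 8.64, 12.9 and 13.9 CPM in the iron-loaded mice in Trad-KAPA. Its values in 3'-LEXO were 4.36, 6.37 and 2.91 CPM and at 3.76, 3.92 and 5.82 CPM. The diets overlapped in both kits. Its log2 fold change was -0.73 ± 0.31 (adjusted p = 0.138) in Trad-KAPA, which passed only with no filter on low counts (adjusted p = 0.0298, range over the alternatives 0.0298 to 0.426), and -0.06 ± 0.30 (adjusted p = 0.921) in 3'-LEXO. The last 150 bases of the Orm1 and Orm2 transcripts were 99.3% identical. Of the last 300 windows of 50 bases, the read length, 54.7% in Orm2 and 49.0% in Orm1 also occurred in transcripts of another gene, the other Orm genes among them, and an exact read of such a window has more than 1 place to map. The Orm counts are therefore uncertain in 3'-LEXO in particular. For Saa1 and Saa2 this share was 8.0% in each over the last 300 windows and 14.8% and 13.3% over the whole transcript, and for Lcn2, Hp, Hpx, Apcs and Itih4 it was 0.

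Itih4 (ENSMUSG00000021922, chromosome 14, 30886476 to 30902353) differed little between the diets in either kit. In Trad-KAPA it was at 4653, 4203 and 3540 CPM in the control mice and at 3980, 4297 and 4417 CPM in the iron-loaded mice. The corresponding 3'-LEXO values were 1561, 1672 and 1203 CPM and at 1420, 1569 and 1546 CPM. The iron-loaded mice lay within the range of the control mice in both kits. Iron-loaded over control, the log2 fold change was -0.03 ± 0.15 (adjusted p = 0.910) in Trad-KAPA and -0.02 ± 0.18 (adjusted p = 0.962) in 3'-LEXO.

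Of the 10 genes, which all passed the filter on low counts in both kits, 5 were called in Trad-KAPA, 3 higher and 2 lower. Of all 13151 genes tested there, 17.1% were called, 8.77% higher and 8.37% lower. In 3'-LEXO 4 of 10 were called, 2 higher and 2 lower, beside 6.1% of 13301 genes, 3.17% higher and 2.92% lower. The median log2 fold change of the 10 genes was -0.17 in Trad-KAPA (all genes tested 0.02) and -0.01 in 3'-LEXO (all genes tested 0.01), since the genes moved in both directions. The diets did not overlap for 6 of the 10 genes in Trad-KAPA, where this held for 41.2% of genes, and for 5 of 10 in 3'-LEXO, where it held for 31.3%.

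The size of the diet effect was compared between the kits by a term for the interaction of kit and diet in a fit of the 12 libraries. It passed for 0 of the 10 genes, and for 0.0% of the 14384 genes tested with edgeR, of which 402 had an unadjusted p under 0.05 (390 by DESeq2, which also called 0). None of the 10 genes had an unadjusted p under 0.05 in this fit, which leaves out that each mouse is in both kits. The estimates were 0.40 ± 0.93 for Saa1, 0.37 ± 0.90 for Saa2, -0.35 ± 0.40 for Lcn2, -0.08 ± 0.26 for Hpx and -0.02 ± 0.21 for Apcs on the log2 scale, as 3'-LEXO minus Trad-KAPA. With the mouse as a replicate block the errors were smaller, and the estimates were 0.38 ± 0.15 for Saa1, 0.27 ± 0.13 for Saa2, 0.48 ± 0.22 for Orm1, 0.66 ± 0.27 for Orm2 and -0.36 ± 0.15 for Lcn2. These 5 of the 10 genes then had an unadjusted p under 0.05, as did 1026 of 14384 genes, and none of the 10 was called (lowest adjusted p = 0.615).

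**Figure D2:**
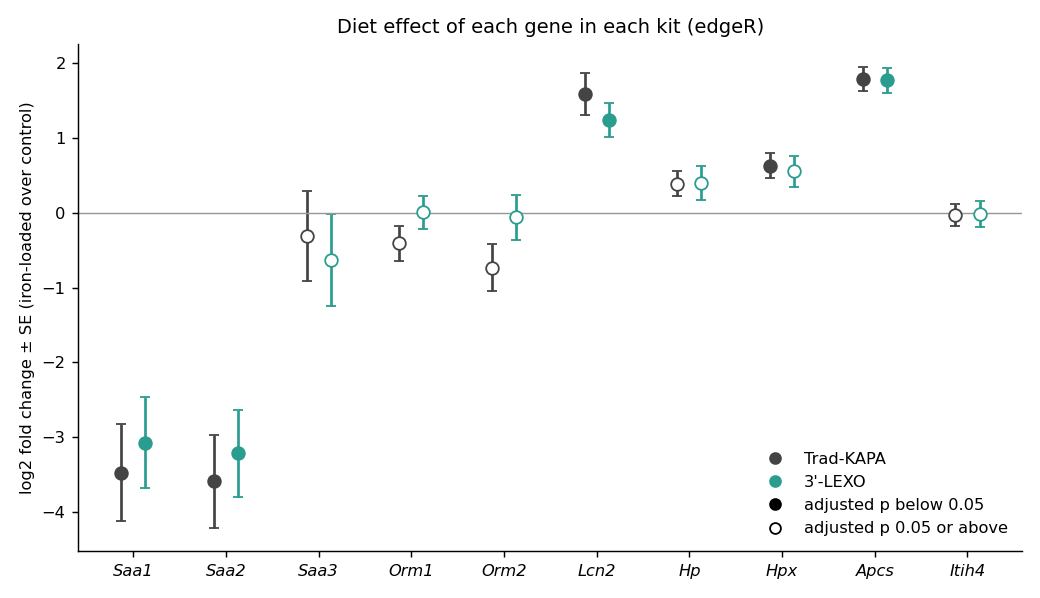
log2 fold change of iron-loaded over control with its SE for the 10 genes, grey for Trad-KAPA and green for 3'-LEXO, filled where the adjusted p is below 0.05. Saa1 and Saa2 lie between -3.59 and -3.07, Apcs at 1.78 and 1.77, and Itih4 at -0.03 and -0.02.

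Levels of different genes were compared in Trad-KAPA as CPM per kb of transcript and in 3'-LEXO as CPM, since a transcript gives reads from its 3' end there. Merged exons of Saa1, Saa2, Saa3 and Lcn2 include introns kept in minor transcripts (2478 bp against 609 bp in the principal coding transcript of Saa1), so both lengths were used, the second chosen after seeing the data. With the principal transcript, the control livers in Trad-KAPA ranked Hpx first at 2628 ± 530 CPM per kb (SD, n = 3), then Hp at 1530 ± 371, Saa1 at 1217 ± 829, Itih4 at 1170 ± 158, Saa2 at 622 ± 443, Orm1 at 520 ± 30, Apcs at 251 ± 43, Lcn2 at 42.9 ± 17.2, Orm2 at 24.4 ± 11.0 and Saa3 at 15.6 ± 12.6. Neighbours from Hp to Orm1 and from Lcn2 to Saa3 overlapped. With merged exons Saa1 stood at 299 ± 204 CPM per kb at the fifth place and Saa2 at 150 ± 107 at the seventh. On the iron-loaded diet Saa1 was the seventh with either length, below Apcs and Lcn2, at 112 ± 64 CPM per kb with the principal transcript, where its range overlapped with that of Lcn2.

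In 3'-LEXO, Saa1 had the highest level of the 10 genes in control livers, at 4948 ± 3495 CPM (SD, n = 3), overlapping with Hpx at 3210 ± 796 CPM. On the iron-loaded diet it was the sixth at 603 ± 351 CPM, and Hpx led at 4877 ± 136 CPM, followed by Hp at 2418 ± 169, Itih4 at 1512 ± 80 and Apcs at 1493 ± 85 CPM. Itih4 and Apcs overlapped there, while in control livers Apcs stood at 423 ± 72 CPM, well under Itih4 at 1479 ± 245 CPM.

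Levels in the kits were set side by side as the ratio of the 3'-LEXO CPM to the Trad-KAPA CPM per kb of merged exons. These units differ, so a ratio of 1 depends on the division by length and is no natural reference. The ratio lay on 1 side of 1 in 6 of 6 mice for 8 of 10 genes (two-sided exact permutation of the signs of the 6 mice, p = 0.0313, the smallest that 6 mice allow, adjusted p = 0.0391), but 92.3% of 12217 genes did so too, and 75.2% on plain CPM. It was 19.1 for Saa1, 15.4 for Saa3, 6.16 for Saa2 and 0.975 for Lcn2 with merged exons, and 4.70, 3.28, 1.48 and 0.340 with the principal transcript. Orm2 was at 0.237 and Apcs at 1.67 with either length. The direction turned with the scale for Hp, Hpx and Itih4, which were at 1.37, 1.18 and 1.32 per kb of merged exons and at 0.854, 0.788 and 0.357 on plain CPM, each in 6 of 6 mice. Saa1, Saa2, Saa3 and Apcs were higher and Orm2 lower in 3'-LEXO on all 3 scales in 6 of 6 mice.

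The ratio of Saa1 to Saa2 counts, in which the depth of the library cancels, also differed between the kits. In Trad-KAPA it was 1.93, 1.97 and 2.13 in control mice 1, 2 and 3 and 1.73, 2.12 and 2.26 in iron-loaded mice 1, 2 and 3. In 3'-LEXO it was 6.77, 4.32 and 7.70 in the control mice and 6.08, 5.78 and 8.37 in the iron-loaded mice. Every mouse had a higher ratio in 3'-LEXO, with a mean of 6.50 ± 1.44 against 2.02 ± 0.19 (SD, n = 6, exact sign-flip permutation p = 0.0313, adjusted p = 0.0313 over 2 ratios). The ratio of Orm1 to Orm2 counts was likewise higher, at 170 ± 49 against 25.3 ± 6.5 (n = 6, exact permutation p = 0.0313). It rests on 41 to 89 counts of Orm2 a library in 3'-LEXO. About 49.0% of the last windows of Orm1 and 54.7% of those of Orm2 are shared with other genes, so this ratio is uncertain. The diets overlapped in the ratio of Saa1 to Saa2 in both kits.

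**Figure D3:**
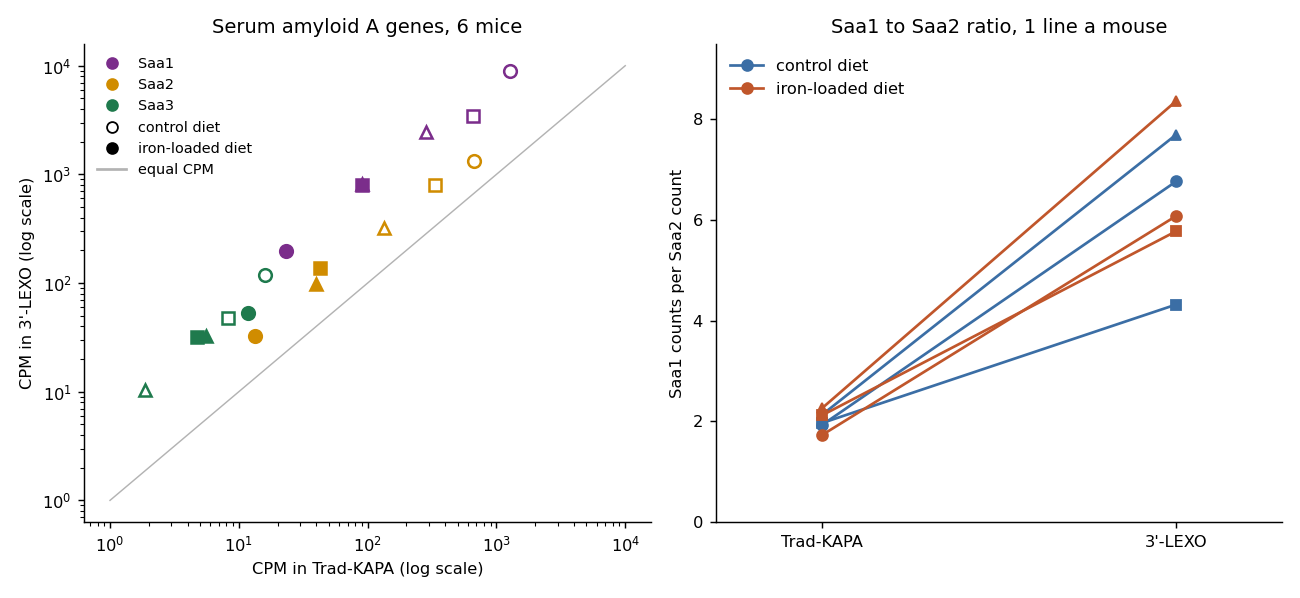
Left, CPM of Saa1, Saa2 and Saa3 in 3'-LEXO against CPM in Trad-KAPA on log axes, 1 point a mouse, open for the control and filled for the iron-loaded diet, with a grey line at equal CPM. Right, Saa1 counts per Saa2 count in each kit, 1 line a mouse, with 1.73 to 2.26 in Trad-KAPA and 4.32 to 8.37 in the 3' kit.

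The genes with the pattern most like that of Saa1 across the 12 libraries, after centring log2 CPM within each kit, were Ntrk2, a neurotrophin receptor, Mmd2 and Serpinb1a, a leukocyte elastase inhibitor. Their root mean square difference from Saa1 was 0.480, 0.556 and 0.562 on the log2 scale, beside a median of 1.90 over 12229 genes, and Saa2 was closer at 0.236. Ntrk2 fell from 33.1 to 2.18 CPM in Trad-KAPA, and the 3'-LEXO means were 22.9 and 2.55 CPM. Those most like Lcn2 were Snhg3, Cpm and Tspan8, at 0.226, 0.232 and 0.246, beside a median of 0.846. Of the members, Apcs was closest to Lcn2, at 0.484.

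Other positive acute phase genes were read from a list of 27, of which 26 were tested in each kit. In Trad-KAPA 4 rose and 5 fell (beside 17.1% of all genes called), and 4 rose and 3 fell in 3'-LEXO (beside 6.1%). The list's median log2 fold change was 0.05 for Trad-KAPA, with 0.08 for the 3' kit. The genes called in both kits were 6. Itih3, of the same family as Itih4, rose by 1.27 ± 0.28 on the log2 scale with Trad-KAPA and by 1.28 ± 0.30 with 3'-LEXO, Cp, the ferroxidase ceruloplasmin, by 0.92 ± 0.13 and 0.96 ± 0.17, and Cd14, the endotoxin co-receptor, by 1.72 ± 0.27 and 1.52 ± 0.23. Orm3, the third orosomucoid gene, whose transcripts share windows with Orm1 and Orm2, had log2 fold changes of -2.19 ± 0.42 and -1.96 ± 0.29, Il1rn, the interleukin-1 receptor antagonist, of -1.40 ± 0.21 and -1.28 ± 0.29, and Lifr, the receptor of leukemia inhibitory factor, of -1.02 ± 0.18 and -1.20 ± 0.18.

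Of the rest, Lrg1 rose by 0.72 ± 0.17 (adjusted p = 0.0253) on the log2 scale in Trad-KAPA, and Mbl1, at -0.63 ± 0.18 (adjusted p = 0.0425), and Vnn1, at -1.51 ± 0.28 (adjusted p = 0.0127), fell. By edgeR these 3 were not called in 3'-LEXO, where they were at 0.70 ± 0.20, -0.60 ± 0.20 and -1.23 ± 0.35 and where DESeq2 called all of them. Fibrinogen, C3, Crp and Saa4 did not pass the test in either kit. The log2 fold changes of the fibrinogen chains Fga, Fgb and Fgg were 0.05 ± 0.15, 0.00 ± 0.14 and 0.05 ± 0.15 in Trad-KAPA, that of C3 was 0.05 ± 0.15, and that of Crp was 0.05 ± 0.15. Saa4, the constitutive serum amyloid A gene, was at -0.11 ± 0.35 with Trad-KAPA, against 0.06 ± 0.35 with 3'-LEXO. Hamp, which encodes the iron hormone hepcidin, was called only in 3'-LEXO, at 2.53 ± 0.62 (adjusted p = 0.0425), while in Trad-KAPA it was at 2.36 ± 0.77 (adjusted p = 0.0667), and the difference between the kits was not called. Control mouse 1, the control mouse with the highest Saa1, had 515 CPM of Hamp in Trad-KAPA, against 44.0 and 83.2 CPM in the other control mice and 1026 to 1326 CPM in the iron-loaded mice.

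**Figure D4:**
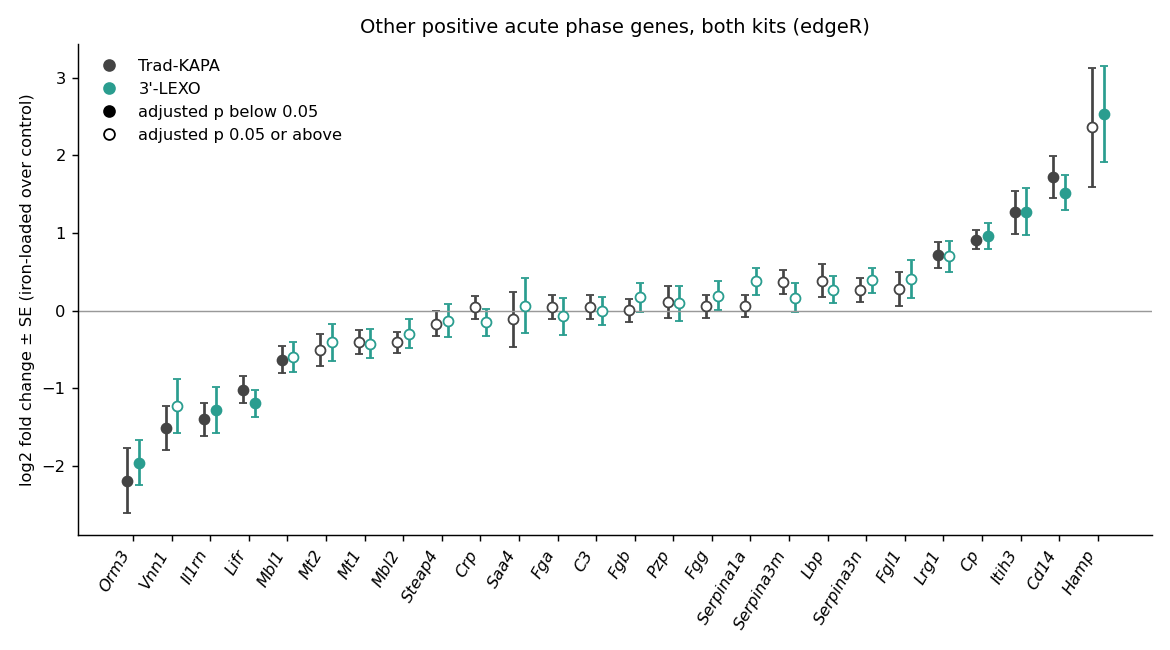
log2 fold change of iron-loaded over control with its SE for the 26 positive acute phase genes tested beside the 10, ordered by their mean, grey for Trad-KAPA and green for 3'-LEXO, filled where the adjusted p is below 0.05. Orm3 is lowest at -2.19 and -1.96 and Hamp highest at 2.36 and 2.53, with most genes near 0.

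Of the 14 negative acute phase genes, 0 fell in either kit by edgeR or DESeq2, and 1 of 14 rose in Trad-KAPA (Fetub, log2 fold change 0.61 ± 0.15, adjusted p = 0.0296), beside 8.77% of all genes called higher and 8.37% called lower. There 2 had an unadjusted p under 0.05 and DESeq2 called Ahsg and Fetub. By edgeR 0 of 13 tested were called in 3'-LEXO, where 3 had an unadjusted p under 0.05 and DESeq2 called the same pair, both higher. Ttr, which encodes transthyretin, had a log2 fold change of -0.56 ± 0.26 (adjusted p = 0.161) in Trad-KAPA and -0.55 ± 0.25 (adjusted p = 0.199) in 3'-LEXO.

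Of 36 genes of the signals that reach the hepatocyte, 29 were tested in each kit, and the cytokines Il6, Tnf, Osm, Lif, Il11 and Il22 were too low to be tested in either. In Trad-KAPA 5 rose and 1 fell, while 2 rose in 3'-LEXO, which is near the 17.1% and 6.1% called among all genes. Cebpd, a C/EBP factor of the acute phase, rose by 1.16 ± 0.14 (adjusted p = 0.00326) and 0.98 ± 0.19 (adjusted p = 0.0184) on the log2 scale, and Nfkbia, the NF-kB inhibitor, by 0.74 ± 0.16 and 0.81 ± 0.20. By edgeR, Il1a, Cebpb and Bcl3 rose and the kinase Tyk2 fell in Trad-KAPA and were not called in 3'-LEXO. Cebpb was at 0.61 ± 0.12 (adjusted p = 0.0141) in the first and at 0.90 ± 0.23 (adjusted p = 0.0518) in the second, where DESeq2 called it, and the difference between the kits was not called for any of these genes. Stat3 was at -0.23 ± 0.14 and its target Socs3 at -0.07 ± 0.21 in Trad-KAPA, and neither passed the test.

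Of 18 binding partners and receptors of the 10 proteins, the kits allowed a test of 13 (Trad-KAPA) and 14 (3'-LEXO). Hmox1, the heme oxygenase that degrades the heme delivered by hemopexin, was the only one called by edgeR, in Trad-KAPA, at 1.43 ± 0.21 (adjusted p = 0.00579). Over all genes tested, the share with a call was 17.1% for that kit and 6.1% for the 3' kit. The Hmox1 call therefore does not set this list apart from other genes. Of the 14 tested in 3'-LEXO, edgeR called 0 and 4 had an unadjusted p under 0.05. DESeq2, run without the filter on low counts, called only Hba-a2, as lower, which edgeR tested in neither kit. Hba-a2 had 58 counts over the 6 libraries of 3'-LEXO, most of them in control mouse 1. It was at 3.22, 0.501 and 0.213 CPM in the control mice and at most 0.186 CPM in the iron-loaded mice. Cd163, the haptoglobin-hemoglobin receptor of macrophages, was at 0.68 ± 0.25 (adjusted p = 0.0973) in Trad-KAPA, where DESeq2 called it with Hmox1, and at 0.25 ± 0.25 in the other kit. The lipocalin 2 receptor gene Slc22a17 was near 1.6 CPM in Trad-KAPA on the iron-loaded diet and did not pass the test. The globin transcripts Hba-a1, Hbb-bs and Hbb-bt, which red blood cells carry, had log2 fold changes of -2.18 ± 0.73, -1.80 ± 0.65 and -1.92 ± 0.61 in Trad-KAPA, with adjusted p from 0.0618 to 0.0901. They were highest in control mouse 3. That mouse was the lowest of the controls in both kits for Saa1, Saa2, Saa3, Orm2, Hp, Hpx and Itih4. Whether the globin values and these genes are related was not tested.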

How the data were processed

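The authors made Trad-KAPA (KAPA Stranded mRNA-Seq) and 3'-LEXO (QuantSeq 3' mRNA-Seq FWD) libraries from the same RNA, mapped single-end reads with STAR 2.5.3a to GRCm38 (mm10) and deposited raw counts, per gene, of reads that map to its exons at a single place, without removal of duplicates. The counting program and annotation release are not given in the sources used here. Gene symbols and lengths came from GENCODE M21 (26940 of 27022 identifiers).

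Counts were tested within each kit, 3 iron-loaded against 3 control mice, with the edgeR 4.0.16 (R 4.3.3) quasi-likelihood test, TMM, filterByExpr and Benjamini-Hochberg adjustment at 0.05 over all genes, where the authors used DESeq2 on subsampled reads. SE is the size of the log2 fold change divided by the root of F. The fits were run on simulated counts with the same dispersion for every gene. The Saa genes spread more between mice than those counts, so the simulation says nothing of their errors. CPM is counts scaled to a library total of 1e6. Nearest patterns used log2(CPM + 0.1). Promoters came from RefSeq, and windows of 50 bases of each gene's principal transcript (APPRIS) were looked up in all GENCODE M21 transcripts on both strands. Kits were compared by exact sign-flip permutation tests over mice. Other steps ran in Python 3.11.15 (scipy 1.17.1, numpy 2.4.6, pandas 2.3.3). Alternatives were DESeq2 1.42.0, its size factors, library totals, no filter, the replicate number or mouse as a block, other lengths and leaving out each mouse. The genes, lists and tests were chosen with earlier results of these data known. Named from each list were all genes called in both kits and up to 10 others, and as nearest patterns the 3 closest genes. A number marks 1 mouse across the kits: deviations of same-numbered libraries correlated at r = 0.417 to 0.753 over 10326 genes, and iron-loaded mouse 2 was the only one closer to another number (0.537). Across diets, numbers pair nothing.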

Additional observations from a re-analysis of the deposited data

How the results depend on the processing

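Of 240 repeats of the 10 genes' diet tests, 225 kept their side of the threshold, 12 lost a call and 3 gained one, and no call changed direction. In Trad-KAPA the 10 genes gave 5 calls, 6 with no filter, and 4 to 5 when a mouse was left out. Mice of different diets share only a number (r of same-numbered deviations from -0.157 to 0.107, and not every mouse correlated best with its own number). With the replicate block the calls in 3'-LEXO went from 4 to 2, as Saa1 (adjusted p = 0.0841) and Saa2 (adjusted p = 0.0548) lost theirs, and over all genes it called 1922 with Trad-KAPA and 436 with the 3' kit. Leaving out a mouse gave 2 to 4 of the 10 genes in 3'-LEXO. Over all genes, calls in Trad-KAPA went from 2255 to between 841 and 2803 with a mouse left out and 1147 with iron-loaded mice 2 and 3 summed. In 3'-LEXO they went from 811 to 1321 with DESeq2, 1959 with no filter, between 199 and 871 with a mouse left out and 445 with these mice summed. With library totals in place of TMM, 61.5% in place of 51.2% of Trad-KAPA calls and 59.9% in place of 52.0% of 3'-LEXO calls were higher on the iron-loaded diet. The interaction called 5 genes with the mouse as a replicate block and 7 with no filter, none of them among the 10. With 5 mice the smallest sign-flip p is 0.0625, so leaving out a mouse left 0 of 8 kit differences, which says nothing of their stability. Unless the alternative's own construction shows it, the cause was not tested.

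Each group held 3 mice of 1 cage. Orm2 in 3'-LEXO, at 2.91 to 6.37 CPM, rests on the lowest counts. The strain is not that of the reference genome, and what this does to reads of the Saa and Orm genes was not tested.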
